A study of Mus musculus with 13 samples.

Results

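Wild-type C57BL/6 mice (n = 3) were compared with transgenic control mice that carried no Cre (n = 5), which are 8 of the 13 samples of the series. The samples were chosen by their labels and not by any measured value. Control mice were NexCre -/- YAP5SAnls +/-, so each held a copy of the nlsYAP5SA transgene, a nuclear and activated form of YAP1 that stays silent behind a floxed STOP until Cre removes it. The C57BL/6 mice were labelled as wild type and carried neither allele. The remaining 5 mice, NexCre +/- YAP5SAnls +/- (nlsYAP5SA), express the transgene in cells that have used the NEX (Neurod6) promoter, mainly cortical and hippocampal neurons and their precursors, and develop tumours. Their values stand beside the comparison as a description, because they are littermates of the controls and share the transgene. All mice were at postnatal day 11, the labels give C57BL/6J as the strain background of every group, and the right hemisphere, freed of olfactory bulb and cerebellum, was the source of RNA. Controls and nlsYAP5SA mice came from 2 matings and the C57BL/6 mice did not come from those litters, so the silent transgene, the litter and colony, and any difference in genetic background cannot be told apart. The sex of each mouse is not recorded, and no X- or Y-linked gene is described.

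Control libraries held 21380744 to 25524349 estimated counts and C57BL/6 libraries 21541836 to 24392197, so depth overlapped between the groups. Levels are given as CPM (counts scaled to a common library total) after TMM normalisation over the 8 libraries, and those of nlsYAP5SA mice after TMM normalisation over all 13. Fold changes are log2 values of C57BL/6 minus control with the standard error (SE) of the fit. Genes were called at an adjusted p of 0.05 or less in the quasi-likelihood test of edgeR, adjusted by the Benjamini-Hochberg method across every gene tested. In whole tissue, fewer cells of a type and less RNA per cell cannot be told apart.

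The question that this comparison addresses is how far a Cre-less carrier of the transgene differs from a wild-type brain. A wild-type group beside a littermate control covers what the control itself carries, such as an inserted cassette with its flanking chromosome and the colony's inherited differences. Inbred colonies kept apart drift in sequence, in copy number and in the retrocopies their genomes hold. A retrocopy, or processed pseudogene, arises when a spliced mRNA is reverse transcribed and inserted elsewhere in the genome, so it lacks introns and reads from it match the gene it came from. RSEM, the counting program of this series, divides such shared reads among the sequences that they match, using the GRCm38 reference, which was built from a C57BL/6J mouse.

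Of 16546 genes tested, 0.169% were called (28 genes), with 0.0484% higher in C57BL/6 (8 genes) and 0.121% lower (20 genes). Among the called genes 1 was X-linked and is not described, and none was Y-linked. Transcripts annotated as pseudogenes made up most of those that were lower. The test called 15 of 537 pseudogenes, or 2.79%, and all 15 were lower in C57BL/6. Among protein-coding genes 9 of 14713 were called, or 0.0612%, with 5 higher and 4 lower. Among antisense RNAs 3 of 345 were called, and among long intergenic RNAs 0 of 381. The calls lay on 12 autosomes, on the X chromosome and on an unplaced scaffold, with no more than 4 on any chromosome. All 28 called genes had no overlap between the groups, which was so for 3.34% of all genes tested (553 genes), with C57BL/6 higher in 1.96% (325 genes) and lower in 1.38% (228 genes). In 27 of the 28, every nlsYAP5SA library lay on the control side of every C57BL/6 library. Of the 8 genes called higher, 3 were called without control replicate 2 or without control replicate 5, 4 without C57BL/6 replicate 1, and 5 without control replicate 1 or without control replicate 4.

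**Figure D1:**
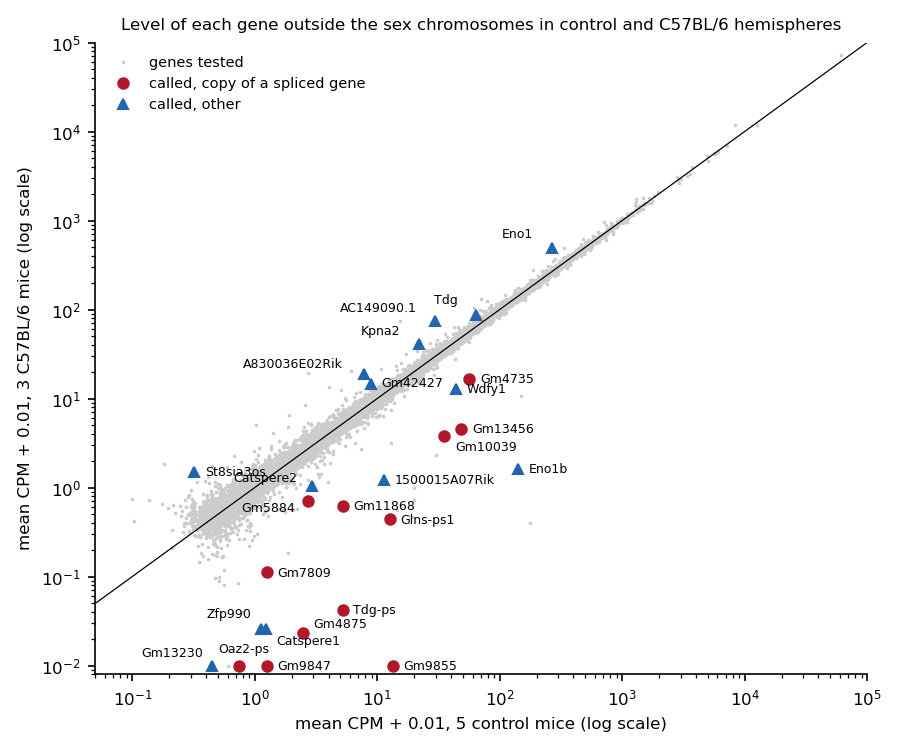
Mean level (CPM + 0.01, log scales) of each tested gene outside the sex chromosomes in 5 control mice (horizontal) and 3 C57BL/6 mice (vertical), with the line of equal level. Called copies of spliced genes (red circles) lie below the line, and the other called genes that are described here (blue triangles) lie on both sides of it. A grey point below the line can be a gene that only some of the controls expressed, and such genes were not called.

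Sequence comparison placed 13 of the 15 called pseudogenes, 1 of them X-linked, as intron-free copies of a spliced coding gene, with 95.7% to 100% identity over the aligned bases. Across the table, 482 genes tested were pseudogenes of any type or single-exon coding genes matched to a spliced gene. The match needed 90% identity over at least 50% of the copy, and 13 of the 482 were called, or 2.7%. The following stretches show how little separates a copy from its gene in 4 of these families, and so how few positions can tell their reads apart. Each was chosen as the gap-free coding stretch with the most differences, so differences are denser there than over the whole alignment. Over its whole alignment Tdg-ps differed from Tdg at 39 of 2968 positions. Each pair or trio covers the same 100 bases of coding sequence, 5′ to 3′ on the strand of the gene, from GENCODE M21 transcripts of GRCm38, and capitals mark, in a copy, the bases that differ from the spliced gene and, in the spliced gene, the bases at which a copy differs from it. Tdg, thymine DNA glycosylase, removes mispaired thymine from DNA, and its copies are Tdg-ps (chr15:82517474-82517573, plus strand) and Gm9855 (chr10:42054217-42054316, minus strand). The stretch of Tdg lies at chr10:82648018-82648616, plus strand, in exons on both sides of an intron that the copies lack.
Tdg: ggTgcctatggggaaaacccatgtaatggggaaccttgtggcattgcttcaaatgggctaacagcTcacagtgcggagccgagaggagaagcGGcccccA
Tdg-ps: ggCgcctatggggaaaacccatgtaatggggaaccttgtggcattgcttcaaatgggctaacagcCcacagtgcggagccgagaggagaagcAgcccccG
Gm9855: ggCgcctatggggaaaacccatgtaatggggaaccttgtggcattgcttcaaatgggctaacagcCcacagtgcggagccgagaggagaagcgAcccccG
Glul, glutamine synthetase of astrocytes, has the copy Glns-ps1 (chr11:19721194-19721293, plus strand), and the matching stretch of Glul is at chr1:153907904-153908003, plus strand. These 100 bases hold 5 differences.
Glul: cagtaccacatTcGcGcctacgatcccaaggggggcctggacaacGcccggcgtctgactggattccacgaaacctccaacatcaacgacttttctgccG
Glns-ps1: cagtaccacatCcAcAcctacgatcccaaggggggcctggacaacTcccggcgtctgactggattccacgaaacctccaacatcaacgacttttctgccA
Eef1a1, a translation elongation factor, has the copy Gm13456 (chr2:40556579-40556678, plus strand), and the matching stretch of Eef1a1 is at chr9:78479355-78479454, minus strand. There are 4 differences.
Eef1a1: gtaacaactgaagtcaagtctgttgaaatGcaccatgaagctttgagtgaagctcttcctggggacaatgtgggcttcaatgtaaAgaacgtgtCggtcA
Gm13456: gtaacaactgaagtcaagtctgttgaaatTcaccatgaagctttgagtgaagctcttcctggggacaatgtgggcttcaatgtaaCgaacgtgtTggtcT
Atp5g1, which encodes the membrane ring subunit of mitochondrial ATP synthase, has the copy Gm10039 (chr11:100361742-100361841, minus strand). The stretch of Atp5g1 lies at chr11:96073130-96073533, minus strand, again across an intron, and only the last base differs, which is also the 1 difference over all 411 aligned bases.
Atp5g1: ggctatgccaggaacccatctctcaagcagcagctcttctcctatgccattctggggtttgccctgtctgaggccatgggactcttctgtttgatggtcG
Gm10039: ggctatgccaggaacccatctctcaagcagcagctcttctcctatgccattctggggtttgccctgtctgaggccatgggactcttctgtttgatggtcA

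Of the genes called, Eno1 and Eno1b held the greatest counts. Eno1 encodes the glycolytic enzyme enolase, Eno1b is a coding gene on chromosome 18 that is nearly identical to it, and the processed pseudogene Gm4735 is a further copy. Eno1b stood at 165, 132, 128, 150 and 134 CPM in control replicates 1 to 5 and at 2.87, 1.10 and 0.847 CPM in C57BL/6 replicates 1 to 3. The groups were far apart, and the nlsYAP5SA libraries, at 117 to 133 CPM, lay close to the controls. The mean was 142 ± 15.6 CPM (SD, n = 5) in control and 1.60 ± 1.10 CPM (SD, n = 3) in C57BL/6, 88.4-fold lower, with a log2 fold change of -6.47 (SE 0.33, adjusted p = 1.81e-05). Gm4735 (chr2:80837141-80838442) read 47.7, 51.8, 66.8, 61.3 and 55.7 CPM in control and 18.6, 14.4 and 16.9 CPM in C57BL/6, again with no overlap. It fell by 1.77 on the log2 scale (SE 0.13, adjusted p = 0.00024), and it differs from Eno1b at 3 of 1302 aligned bases. Eno1 itself (chr4:150236721-150248879) moved the other way, from 291, 252, 261, 261 and 268 CPM in control to 509, 523 and 441 CPM in C57BL/6, against 227 to 242 CPM in nlsYAP5SA mice. Eno1 rose 1.84-fold (log2 0.88, SE 0.08, adjusted p = 0.000827).

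The enolase group was also summed. Eno1 together with its copies held 465 CPM in control and 509 CPM in C57BL/6 (pooled log2 fold change 0.13, SE 0.08). The sum was not called (adjusted p = 0.9999), which does not show that it was unchanged. The division of these counts differed, and the reason was not tested. In control 42.7% ± 1.21 (SD, n = 5) of the group's estimated counts were assigned to copies, in C57BL/6 3.60% ± 0.636 (SD, n = 3), and in nlsYAP5SA 42.3% to 46.1%. These are shares of counts and not of molecules, because a count is not corrected for transcript length.

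Tdg showed the same arrangement with both copies. Gm9855 stood at 9.52, 14.2, 14.3, 13.7 and 14.9 CPM in control and at 0 counts in all 3 C57BL/6 libraries, which makes it at least 302-fold lower given a floor of 3 counts over the 3 libraries (0.0441 CPM, adjusted p = 4.51e-05). Tdg-ps read 6.05, 5.40, 4.33, 5.58 and 4.76 CPM in control and 0, 0.0958 and 0 CPM in C57BL/6. It held 624 counts in the 5 control libraries and 2 in the 3 C57BL/6 libraries, a ratio of 178 after scaling (95% interval 49.1 to 1474, covering counting error only). No control library came near the C57BL/6 values of either copy. Tdg rose from 63.6, 67.7, 65.7, 63.4 and 59.7 CPM to 89.3, 88.1 and 84.6 CPM, with 61.5 to 69.6 CPM in nlsYAP5SA mice (log2 0.45, SE 0.06, adjusted p = 0.0291). Summed with its copies Tdg held 82.6 CPM in control and 87.4 CPM in C57BL/6 and was not called, while the share on copies was 22.5% ± 1.89 against 0.0362% ± 0.0627 (SD, n = 5 and n = 3). The call of Tdg was lost when any of the 8 mice was left out (adjusted p up to 0.222), and the share on copies kept its difference each time.

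Kpna2, an importin that carries proteins into the nucleus, was the third coding gene of this kind to rise. Kpna2 (chr11:106988629-106999541) read 20.1, 20.7, 21.8, 24.6 and 22.3 CPM in control and 42.6, 45.9 and 35.5 CPM in C57BL/6, without overlap, and 15.1 to 27.0 CPM in nlsYAP5SA mice. Its log2 fold change was 0.91 (SE 0.10, adjusted p = 0.00425). Its intron-free copy Gm10184, annotated as coding and different at 2 of 1968 aligned bases, read 26.9, 21.6, 21.6, 16.6 and 12.5 CPM in control and 2.91, 0 and 0 CPM in C57BL/6. It was not called (log2 fold change -4.36, SE 0.81, adjusted p = 0.155), but it was called without C57BL/6 replicate 1, the 1 wild-type library with a count (adjusted p = 0.00181, with a fitted log2 fold change of -11.87 that is no bound, since both remaining wild-type libraries had 0 counts), without a filter on low counts and with all 13 samples in a single fit. Over its 20 alternatives the adjusted p ran up to 0.847. The group's share on copies was 57.8% ± 4.40 in control and 15.2% ± 8.82 in C57BL/6 (SD, n = 5 and n = 3). Pooled, the Kpna2 group turned to a log2 fold change of -0.10 (adjusted p = 0.9999), with 52.1 CPM in control and 48.8 CPM in C57BL/6.

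Gm10039, the copy of Atp5g1, read 40.7, 36.2, 31.5, 36.1 and 32.2 CPM in control and 4.12, 1.82 and 5.32 CPM in C57BL/6 and fell by 3.22 on the log2 scale (SE 0.26, adjusted p = 0.000535). Atp5g1 had its lower values in control, at 93.3, 76.6, 74.9, 75.6 and 70.8 CPM, and stood at 129, 148 and 98.9 CPM in C57BL/6. The groups did not overlap but the gene was not called (log2 0.68, SE 0.13, adjusted p = 0.186), and control replicate 1 stood above its fellows. It was called by DESeq2's Wald test (adjusted p = 0.00122), with all 13 samples in a single fit, and without C57BL/6 replicate 3 (log2 0.81, adjusted p = 0.0297), and not in the other 19 of 22 alternatives (adjusted p up to 0.9999). The share on copies was 31.1% ± 1.12 in control and 3.25% ± 1.89 in C57BL/6 (SD, n = 5 and n = 3), within a summed level of 114 and 129 CPM. The same held on a smaller scale for Cyb5r4, a cytochrome b5 reductase, whose copy Gm11868 read 5.07, 5.20, 5.41, 5.03 and 5.56 CPM in control and 0.358, 0.910 and 0.565 CPM in C57BL/6 (log2 fold change -3.11, SE 0.23, adjusted p = 0.000224). Cyb5r4 stood at 31.1 CPM in control and 36.7 CPM in C57BL/6, was not called (adjusted p = 0.695), and was at 36.3 and 37.3 CPM when summed with the copy.

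**Figure D2:**
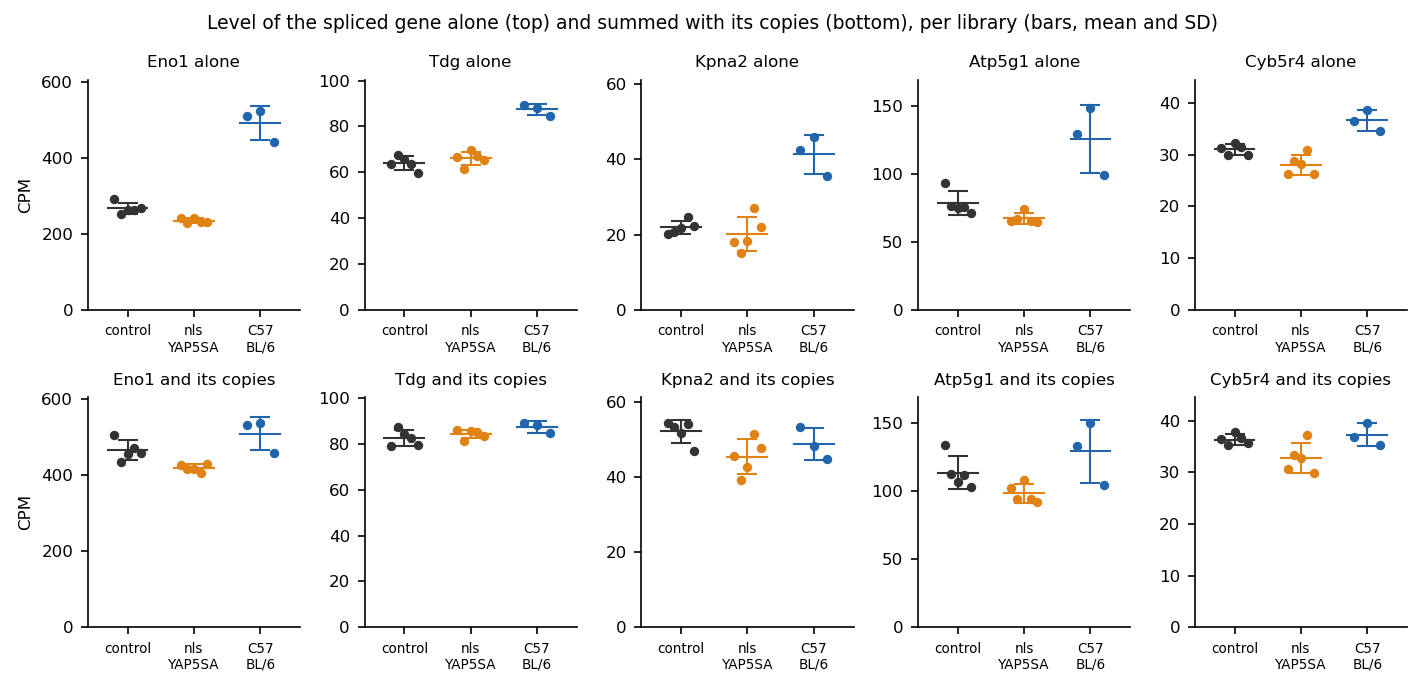
Level (CPM) of 5 spliced genes alone (top row) and summed with their near-identical copies (bottom row), with a point for each library and bars for the mean and SD of 5 control, 5 nlsYAP5SA and 3 C57BL/6 mice. Alone, the C57BL/6 libraries of each gene lie above all others (Eno1 491 against 267 CPM in control), and after summing they overlap the controls in all 5 (Eno1 509 against 465 CPM, Tdg 87.4 against 82.6 CPM).

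In the families of Eef1a1 and Glul the copy held under 2% of the group's counts in control. Gm13456, the copy of Eef1a1, read 51.3, 53.4, 46.2, 44.0 and 48.4 CPM in control and 4.48, 4.88 and 4.35 CPM in C57BL/6, a 10.6-fold difference with narrow spreads (log2 fold change -3.41, SE 0.10, adjusted p = 3.48e-07). nlsYAP5SA libraries stood at 48.9 to 58.2 CPM, beside the controls. Eef1a1 stood at 2857 CPM in control and 2818 CPM in C57BL/6. Glns-ps1, the copy of Glul, read 9.40, 12.5, 13.9, 14.0 and 13.2 CPM in control and 0.716, 0.287 and 0.282 CPM in C57BL/6, 29.4-fold lower (log2 fold change -4.87, SE 0.28, adjusted p = 4.51e-05). Glul was at 641, 682, 764, 796 and 787 CPM in control and at 846, 960 and 843 CPM in C57BL/6, apart but not called (log2 0.27, SE 0.09, adjusted p = 0.9996). The share of copies in the Glul group was 1.68% in control and 0.0493% in C57BL/6, within a summed level of 747 and 883 CPM. The sum was apart as well, at 650 to 810 CPM in control and 843 to 960 CPM in C57BL/6, and was not called.

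The other called copies were of low abundance. Gm4875, a copy of the actin-binding protein gene Lasp1, held 292 counts in the controls and 1 in C57BL/6, a ratio of 167 (95% interval 29.7 to 6607, counting error only). Gm7809, a copy of the tropomyosin gene Tpm4, stood at 0.940 to 1.47 CPM in control and at 0.134, 0.0479 and 0.121 CPM in C57BL/6 (log2 fold change -3.53, SE 0.37, adjusted p = 0.004). Gm5884 matched Tom1, an endosomal sorting gene, without a difference over 1479 bases, and read 2.37, 2.70, 2.71, 2.94 and 2.78 CPM in control and 0.895, 0.766 and 0.403 CPM in C57BL/6 (log2 fold change -1.98, SE 0.24, adjusted p = 0.00943). Its nlsYAP5SA libraries spread more widely than the controls, from 1.13 to 3.33 CPM, but stayed above the C57BL/6 mice. Oaz2-ps and Gm9847, copies of the antizyme gene Oaz2 and the cytokine signalling suppressor Socs2, had no count in C57BL/6 and were at least 16.7-fold and at least 28.2-fold lower. The calls of Oaz2-ps (adjusted p = 0.0291) and Gm9847 (adjusted p = 0.0493) were lost in 7 of the 8 fits without a mouse, all but that without control replicate 3 and control replicate 5 respectively, with adjusted p up to 0.143 and 0.174.

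How much of its level a copy had left in C57BL/6 differed among the families: 29.3% for Gm4735, 25.5% for Gm5884, 11.6% for Gm11868, 10.6% for Gm10039, 9.40% for Gm13456, 8.10% for Gm7809, 3.40% for Glns-ps1, 0.611% for Tdg-ps, 0.546% for Gm4875 and 0 for Gm9855, Oaz2-ps and Gm9847. The level left did not follow the number of differing bases in a single order. Gm5884, without a difference from Tom1, had 25.5% left, and Gm9847, with 3 from Socs2, had 0. Gm13456 had 19 from Eef1a1 over 1390 aligned positions, of which 26 were gaps, with 9.40% left. The 3 differences of Gm4735 are from Eno1b, itself lower in C57BL/6, and not from Eno1. Aligned lengths differ, so these counts are not rates. With 12 copies in all this is a description. None of the group sums was called, with pooled log2 fold changes between -0.10 and 0.24 and an adjusted p of 0.9999 for each. Fitting all near-identical genes as 1 unit left 6 calls among 15960 units (0.0376%). In that fit Gm13230, A830036E02Rik, Catspere2 and AC149090.1, outside the groups, lost the call at an edgeR adjusted p of 0.0545. Of the 12 spliced genes that best matched a called copy, 10 had a log2 fold change above 0, beside 50.7% of all genes tested. The exceptions were Eef1a1 and Eno1b, the best match of Gm4735. Of the 10, only Tdg was called, and Lasp1, Socs2, Oaz2 and Tpm4 were above 0 by less than their SE (log2 0.0066 to 0.0721).

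**Figure D3:**
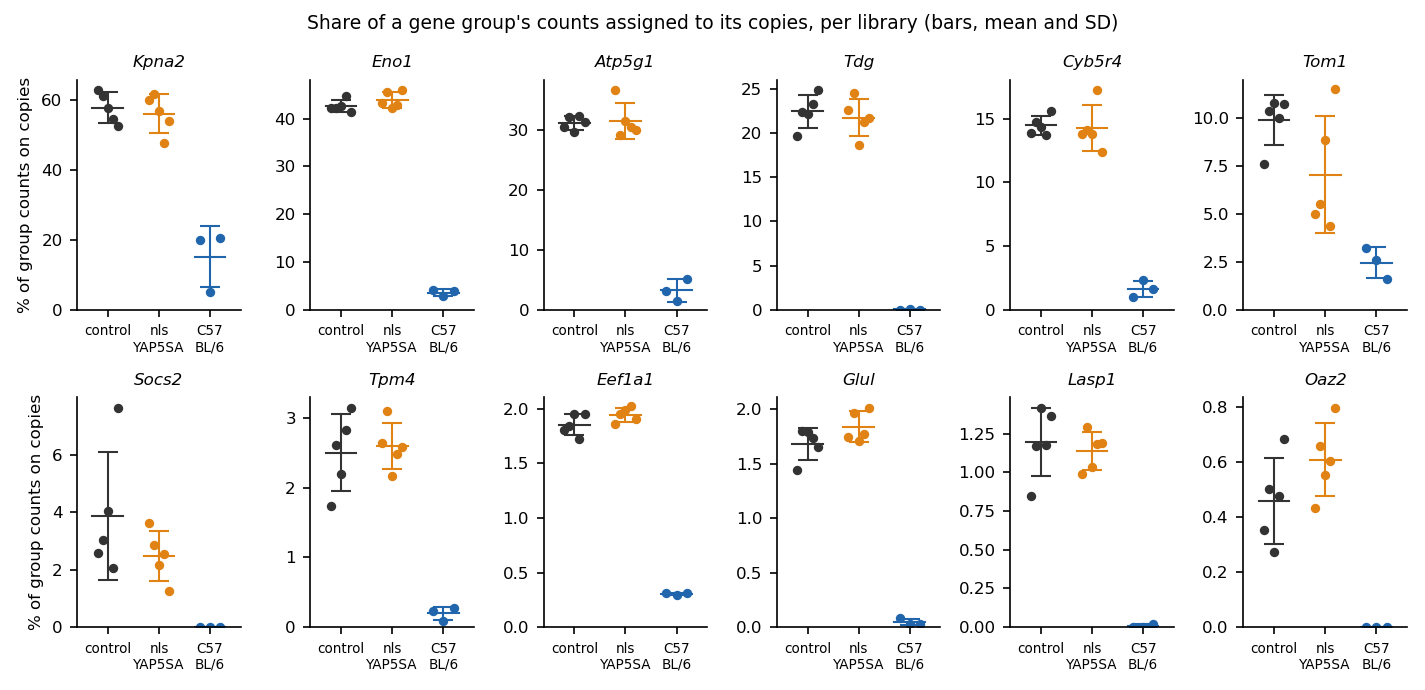
Percentage of a gene group's estimated counts that was assigned to its copies, for 12 groups named by the spliced gene, with a point for each library and bars for the mean and SD of 5 control, 5 nlsYAP5SA and 3 C57BL/6 mice. In each panel the 3 C57BL/6 points lie below every control and nlsYAP5SA point, as in Eno1 with 42.7% in control and 3.60% in C57BL/6. The vertical scales differ between panels.

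Outside these families 11 called genes remained, 5 higher and 6 lower in C57BL/6, or 0.0741% of the 14851 genes outside groups of near-identical genes, and 10 of them are described here. Wdfy1, an adaptor protein of early endosomes and of Toll-like receptor signalling, was the most abundant of those that were lower. Wdfy1 (chr1:79702262-79776143, minus strand) read 39.9, 42.5, 49.4, 43.2 and 43.6 CPM in control and 12.8, 12.9 and 12.3 CPM in C57BL/6. The nlsYAP5SA libraries, at 44.2 to 46.6 CPM, lay within the control range. The mean fell from 43.7 ± 3.48 CPM (SD, n = 5) to 12.7 ± 0.366 CPM (SD, n = 3), 3.45-fold lower, with a log2 fold change of -1.79 (SE 0.09, adjusted p = 1.35e-05). It was called under all 22 alternatives, with an adjusted p of at most 0.004.

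Adjacent genes were lower together on chromosomes 1 and 4. Zfp990, of the large family of KRAB zinc finger genes (chr4:145510759-145539188), stood at 0.695, 0.782, 1.46, 1.26 and 1.37 CPM in control and held 1 count in C57BL/6 against 131 in control, a ratio of 74.8 (95% interval 13.2 to 2976, counting error only, adjusted p = 0.00893). Gm13230, an unprocessed pseudogene 0.0599 Mb away, read 0.333 to 0.508 CPM in control and had no count in C57BL/6, at least 9.84-fold lower (adjusted p = 0.0267). Neither was abundant, and both groups of points were apart. Catspere1 and Catspere2 lie 0.0212 Mb apart on chromosome 1, and the latter encodes an auxiliary part of the CatSper calcium channel of sperm. Catspere1, annotated as a pseudogene, read 0.654, 1.29, 1.87, 1.09 and 1.23 CPM in control and held 1 count in C57BL/6 against 146 in control, a ratio of 83.4 (95% interval 14.7 to 3315, adjusted p = 0.00943). Catspere2 read 2.17, 2.54, 3.20, 3.02 and 3.77 CPM in control and 1.03, 0.958 and 1.09 CPM in C57BL/6 (log2 fold change -1.51, SE 0.22, adjusted p = 0.0291). Reads that these neighbours share would be divided between them, which was not tested. The call of Zfp990 was lost without C57BL/6 replicate 1 (adjusted p = 0.0775), that of Catspere1 without C57BL/6 replicate 1 or 3 (up to 0.0833), that of Gm13230 without control replicate 5 or any C57BL/6 mouse (up to 0.0844), and that of Catspere2 without any mouse but control replicate 1 (up to 0.184).

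Of the 3 called antisense RNAs 1 was lower and 2 were higher. 1500015A07Rik, antisense to the actin-associated gene Afap1l1 on chromosome 18, read 12.1, 12.3, 10.4, 11.0 and 10.8 CPM in control and 1.25, 1.29 and 1.05 CPM in C57BL/6, 9.45-fold lower (log2 fold change -3.24, SE 0.13, adjusted p = 3.40e-06). Its nlsYAP5SA libraries lay at 9.06 to 11.3 CPM, and it was called under all 22 alternatives. Afap1l1 itself stood at 16.8 CPM in control and 19.2 CPM in C57BL/6 and was not called. St8sia3os, antisense to the brain sialyltransferase gene St8sia3, read 0.368, 0.235, 0.333, 0.294 and 0.330 CPM in control and 1.12, 1.58 and 1.73 CPM in C57BL/6 (log2 2.23, SE 0.25, adjusted p = 0.00538). This was the 1 called gene for which an nlsYAP5SA library, at 1.75 CPM, was as high as the C57BL/6 mice, while the lowest stood at 0.317 CPM. A830036E02Rik, antisense to the corneal keratin gene Krt12, read 5.72, 6.10, 10.2, 8.47 and 8.16 CPM in control and 15.9, 19.3 and 20.8 CPM in C57BL/6 (log2 1.28, SE 0.18, adjusted p = 0.0291). Krt12 stood at 2.63 and 4.36 CPM (adjusted p = 0.448). The strand setting of the counting is not stated, so reads of an antisense RNA and of its partner cannot be told apart. The call of A830036E02Rik was lost without control replicate 2, 4 or 5 or without any C57BL/6 mouse (adjusted p up to 0.112).

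Gm42427, a transcript awaiting experimental annotation (chr5:44137980-44143271), read 8.70, 8.72, 9.03, 9.48 and 8.34 CPM in control and 14.1, 13.3 and 15.8 CPM in C57BL/6 (log2 0.70, SE 0.09, adjusted p = 0.0122). Its call was lost without control replicate 2 or 5 or C57BL/6 replicate 1 or 3 (adjusted p up to 0.0833). AC149090.1, a coding gene on a scaffold that GRCm38 does not place on a chromosome, read 26.6, 29.1, 24.6, 37.7 and 31.1 CPM in control and 59.2, 103 and 62.6 CPM in C57BL/6. C57BL/6 replicate 2 was the highest of all, but the other C57BL/6 mice were also above each control. Its log2 fold change was 1.33 (SE 0.19, adjusted p = 0.0291), the nlsYAP5SA libraries spread from 25.5 to 57.8 CPM, and the call was lost without control replicate 1, 2, 3 or 5 (adjusted p up to 0.145).

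**Figure D4:**
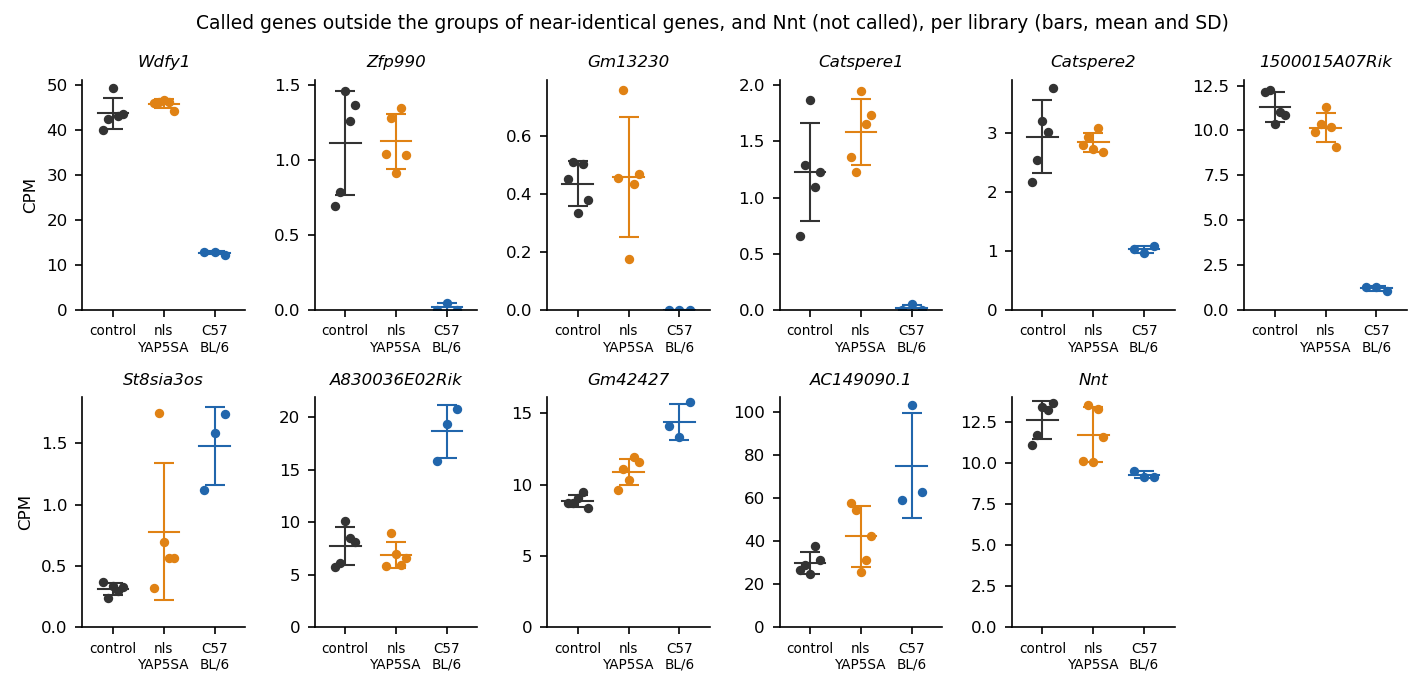
Level (CPM) of the 10 called genes described here from outside the groups of near-identical genes, and of Nnt, which was not called, with a point for each library and bars for the mean and SD of 5 control, 5 nlsYAP5SA and 3 C57BL/6 mice. In the called genes the C57BL/6 points lie apart from the controls, as in Wdfy1 (12.7 against 43.7 CPM), and 1 nlsYAP5SA library of St8sia3os stands at 1.75 CPM, just above the highest C57BL/6 value of 1.73 CPM.

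The genes of the design differed little between wild-type and Cre-less mice. Yap1, the transcriptional coactivator that the transgene encodes in activated form, read 20.3, 19.9, 20.7, 20.1 and 22.3 CPM in control and 21.5, 19.4 and 20.6 CPM in C57BL/6, overlapping, with a log2 fold change of -0.01 (SE 0.07, adjusted p = 0.9996). nlsYAP5SA mice stood at 22.7 to 26.7 CPM. Wwtr1, which encodes the YAP1 paralogue TAZ, read 32.2, 39.4, 40.8, 39.5 and 39.7 CPM in control and 38.1, 32.8 and 37.7 CPM in C57BL/6 (log2 fold change -0.08, SE 0.09). Lats1 and Lats2, the kinases that phosphorylate and restrain YAP1 and TAZ, gave log2 fold changes of -0.11 (SE 0.19) and 0.01 (SE 0.14). Lats2 read 12.5, 14.5, 19.1, 17.0 and 17.0 CPM in control and 14.6, 15.8 and 17.9 CPM in C57BL/6, and 32.5 to 37.7 CPM in nlsYAP5SA mice. Neurod6, at whose locus the Cre driver sits, read 92.2, 110, 93.8, 98.4 and 91.4 CPM in control and 102, 92.4 and 87.9 CPM in C57BL/6 (log2 fold change -0.04, SE 0.08), and 39.0 to 56.8 CPM in nlsYAP5SA mice, which carry the driver. None of these genes was called, and an adjusted p above the threshold does not show that the levels were equal.

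YAP1 and TAZ act by binding TEAD factors, and their targets serve as a readout of any activity from an unrecombined transgene. None of 20 target genes tested was called, 14 had a log2 fold change above 0, and their median was 0.04 beside 0.0018 for all genes tested. Their mean log2 level, against the mean of the controls, was -0.19 and -0.11 in control replicates 1 and 2. It was 0.08 to 0.12 in the other controls and 0.05, -0.02 and 0.20 in C57BL/6, so the groups overlapped. Ctgf, a secreted matrix protein and a classical target, read 17.8, 17.0, 16.4, 18.5 and 19.4 CPM in control and 24.2, 24.8 and 21.4 CPM in C57BL/6. The groups did not overlap, with the wild-type mice higher, and nlsYAP5SA mice stood at 38.3 to 55.9 CPM. Its log2 fold change was 0.40 (SE 0.08, adjusted p = 0.249 in edgeR), and of 22 alternatives DESeq2's Wald test called it (adjusted p = 0.0288, up to 0.847 in the others). Cyr61 stood at 4.63 and 5.91 CPM (log2 0.35, SE 0.19), F3, tissue factor, at 19.4 and 22.9 CPM (log2 0.24, SE 0.09), and Amotl2, a negative regulator of YAP1, at 16.1 and 16.6 CPM (log2 0.04, SE 0.10). None of 26 Hippo pathway components was called, 9 had a log2 fold change above 0, and the median was -0.03. Vgll4, which competes with YAP1 for TEAD, was at 19.8 CPM in control and 17.2 CPM in C57BL/6 without overlap but was not called (log2 fold change -0.20, SE 0.08). Gt(ROSA)26Sor, the noncoding transcript of a locus often used for conditional transgenes, was named after its values were seen. It read 2.94, 2.35, 2.79, 3.10 and 3.16 CPM in control and 5.28, 5.60 and 4.03 CPM in C57BL/6, apart but not called (log2 0.79, SE 0.15, adjusted p = 0.17), with 3.80 to 4.70 CPM in nlsYAP5SA mice. DESeq2's Wald test (adjusted p = 0.0183) and the fit of all 13 samples (adjusted p = 0.0229) called it, and the other 20 of 22 alternatives did not (adjusted p up to 0.708). The locus of the transgene is not stated in the sources used here.

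Genes known to vary among C57BL/6 substrains and other inbred strains were examined because the wild-type mice came from outside the litters. None of 11 tested was called, 7 had a log2 fold change above 0, and the median was 0.02, or -0.15 without C57BL/6 replicate 3. Nnt, the mitochondrial transhydrogenase that C57BL/6J mice carry in a deleted form, read 11.1, 11.7, 13.4, 13.3 and 13.7 CPM in control and 9.54, 9.14 and 9.15 CPM in C57BL/6. The groups did not overlap, but the difference was small and not called (log2 fold change -0.44, SE 0.10, adjusted p = 0.303), and counts per gene do not show which exons the reads came from. Mmrn1, a platelet matrix protein gene deleted together with its neighbour in some C57BL/6 stocks, stood at 1.35 and 0.988 CPM (log2 fold change -0.44, SE 0.28). Disc1, a scaffold protein gene truncated in 129 strains, stood at 0.730 and 0.963 CPM (log2 0.41, SE 0.34). Fgfbp3, a carrier of fibroblast growth factors, stood at 6.05 and 4.77 CPM (log2 fold change -0.35, SE 0.17). Each of these was detected in both groups.

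In all, 29 lists of pathway, state and cell type genes gave 374 listed genes that were tested, and none was called by edgeR's quasi-likelihood test. At an unadjusted p of 0.05 or less there were 12 of them, or 3.21%, beside 3.78% of all genes tested, and limma-voom called 0 and DESeq2 1, Ctgf. Without C57BL/6 replicate 3 the share was 9.63% of listed genes (36) and 7.2% of all genes. Interferon-stimulated genes had a median log2 fold change of 0.24, with 13 of 16 above 0. Xaf1 stood at 0.813 CPM in control and 1.38 CPM in C57BL/6 (log2 0.75, SE 0.28) and Ifit1, which binds viral RNA, at 0.750 and 1.20 CPM (log2 0.68, SE 0.25). The list's score, the mean log2 level of its genes against the mean of the controls, was 0.41, 0.13 and -0.07 in the C57BL/6 mice and -0.08 to 0.11 in control, so C57BL/6 replicate 3 lay among the controls. Antigen presentation genes had a median of 0.16, with 16 of 17 above 0, and scores of 0.11, 0.33 and -0.06 in C57BL/6 against -0.08 to 0.05 in control, so that C57BL/6 replicate 2 was highest and replicate 3 lay among the controls. Immediate early genes of neuronal activity had a median of 0.19, with 15 of 18 above 0, among them Ier2 at 6.26 and 8.0 CPM (log2 0.35, SE 0.15). Their scores were low in control replicates 1 and 2, at -0.32 and -0.28, and the C57BL/6 mice, at 0.11 to 0.22, overlapped the other controls at 0.13 to 0.29. All 12 heat shock genes were above 0, with a median of 0.09. Their scores were 0.13, 0.22 and -0.0013 in C57BL/6 against -0.05 to 0.02 in control, again with C57BL/6 replicate 3 among the controls. Among them Hspa8 read 1792, 1690, 1746, 1093 and 1046 CPM in control and 1758 to 1913 CPM in C57BL/6. The groups overlapped, and control replicates 4 and 5 were the low ones. Cholesterol synthesis genes leaned the other way, with 1 of 16 above 0 and a median of -0.08, and Idi1, an isomerase of that pathway, stood at 111 and 101 CPM without overlap (log2 fold change -0.13, SE 0.06). Members of a list share their libraries, so these counts are not independent observations.

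Among cell type markers, myelin genes had a median log2 fold change of 0.32, with 13 of 13 above 0. Mal, a membrane protein of compact myelin, stood at 30.5 CPM in control and 46.0 CPM in C57BL/6 (log2 0.59, SE 0.32), and Mag, which faces the axon, at 111 and 146 CPM (log2 0.40, SE 0.21). The scores overlapped, with control replicates 1 and 2 at -0.31 and -0.45, the other controls at 0.17 to 0.33, and C57BL/6 at 0.05, 0.66 and 0.23. The same 2 control libraries stood apart from the other controls in further lists, higher for hypothalamic and thalamic neurons (0.42 and 0.30 against -0.41 to -0.05) and blood cells (0.58 and 0.20 against -0.27 to -0.25), and lower for astrocytes (-0.20 and -0.12 against 0.10 to 0.11) and for pericytes and fibroblasts (-0.25 and -0.20 against 0.13 to 0.19). The median log2 fold change of the myelin genes was 0.25 without control replicate 1 and 0.23 without control replicate 2, and that of the immediate early genes, 0.19 with all libraries, was 0.12 and 0.08. The pair was not left out together. Markers of neural progenitors and immature neurons had a median of -0.15, with 4 of 13 above 0, those of cortical and hippocampal excitatory neurons -0.04, of striatal neurons -0.09, of astrocytes 0.03, of microglia 0.09 and of pericytes and fibroblasts 0.12. The scores of all these lists overlapped between the groups, and C57BL/6 replicate 2 was the highest library for microglia, at 0.28, as it was for myelin. For striatal neurons C57BL/6 replicate 3 was the lowest library, at -0.38, against -0.10 to 0.14 in all others. The excitatory neuron markers Neurod6, Slc17a7 and Bcl11b were abundant in both groups, with Slc17a7, the vesicular glutamate transporter, at 832 CPM in control and 906 CPM in C57BL/6. Pituitary markers were almost absent, with 2 of 9 tested.

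Choroid plexus, the epithelium that secretes cerebrospinal fluid, gave the widest spread between libraries. Its median log2 fold change was 0.41, with 13 of 14 above 0 and 0 called. Ttr, transthyretin, which defines this tissue, read 217, 0.821, 1.25, 2.14 and 129 CPM in control and 1.52, 157 and 239 CPM in C57BL/6. Both groups thus held libraries with high and with low Ttr, high in 2 of 5 controls and 2 of 3 C57BL/6 mice. The summed level of the 14 markers was 126 to 373 CPM in control and 143 to 502 CPM in C57BL/6. With the level of Ttr as a covariate 19 genes were called, 3 higher and 16 lower, all among the 28. Wdfy1, 1500015A07Rik, Eno1, Kpna2 and St8sia3os and the copies with the lowest adjusted p were among them, and Tdg, A830036E02Rik, Gm42427 and AC149090.1 were not. The log2 fold changes of these 4 were nonetheless about as large with the covariate as without it, at 0.47, 1.28, 0.71 and 1.29 against 0.45, 1.28, 0.70 and 1.33.

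**Figure D5:**
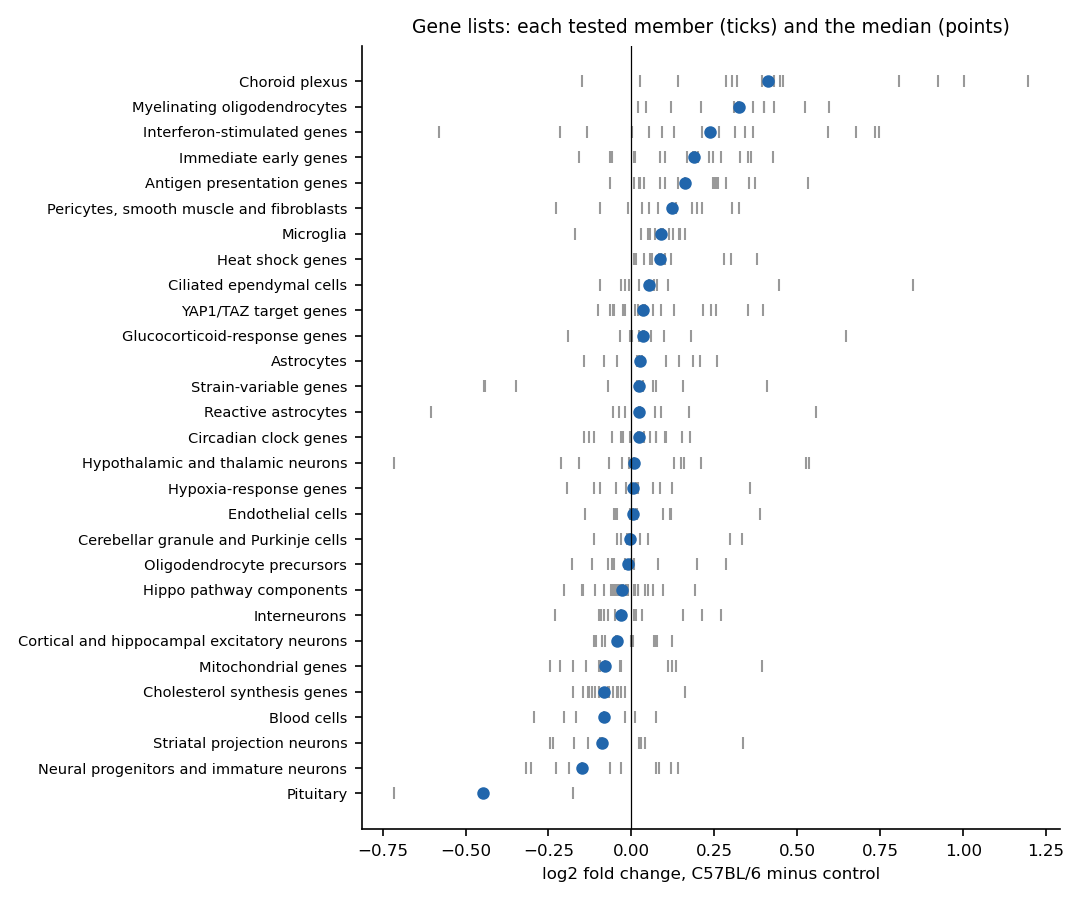
Log2 fold change (C57BL/6 minus control) of each tested member of 29 gene lists (ticks) with the median of each list (points), ordered by median. Medians run from -0.45 in the pituitary list, of which 2 genes were tested, to 0.41 in the choroid plexus list, and no listed gene was called.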

How the data were processed

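RNA of the right hemisphere was extracted with RNeasy and libraries were made with the KAPA mRNA HyperPrep kit. Trimming by CutAdapt 1.5 and mapping by STAR to GRCm38 (Ensembl release 86) came first, SAMtools 1.8 was used, and the deposited table, 1 for the series, holds RSEM 1.3.0 estimated counts, not normalised. Between 12.4% and 13.3% of a library's values are not whole. All columns were mapped to samples and 0 were left unused. The strand setting is not given in the sources used here.

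Estimated counts were rounded. Tests ran in R 4.3.3 with edgeR 4.0.16 (TMM, filterByExpr with a minimum count of 10 and total of 15, glmQLFit and glmQLFTest, 2-sided, Benjamini-Hochberg adjusted p of 0.05). Tables and figures were made with Python 3.11.15 (numpy 2.4.6, pandas 2.3.3, matplotlib 3.10.9), and limma 3.58.1 and DESeq2 1.42.0 served the alternatives. The edgeR test was tried on simulated counts. Of 48795 identifiers, 48435 were placed with GENCODE M21 of GRCm38, a later release than that counted on. Pseudogenes and single-exon coding genes (4221) were searched against spliced genes with blastn 2.17.0, and 2349 matched at 90% identity or more over at least 50% of the copy. Coding genes joined a group at 97% identity over 80%, giving 1197 groups of 3808 genes.

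Members and gene lists were chosen with earlier results of these data known. Named are autosomal genes of the design, every called autosomal gene, the strain list, the 2 members with the smallest unadjusted p in each other list, and the 5 largest rises and falls with 50 counts or more and no overlap. Genes that copies came from, antisense partners, Ttr, Gfap, Amotl2, Cyr61, Gm15920, Gt(ROSA)26Sor and AC149090.1, whose chromosome is unknown, were added after their values were seen. A few genes that the rule names are not reported here. A score used log2(CPM + 0.5). The floor was 3 counts, and floors and intervals cover counting error only. No label ties a mouse to a litter, and p-values measure the spread between these mice, which within each group exceeded sampling noise.

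Alternatives were limma-voom, DESeq2 (its Wald test, and its size factors in edgeR), scaling by library size, leaving out the filter or raising it to 10 counts in each sample, all 13 samples in a single fit, covariates for Y-linked counts and for Ttr, an offset for GC content and length, the replicate number as a block, thinning, and leaving out each mouse. Pooling near-identical genes, leaving out pseudogenes and the copy shares without each mouse were added after seeing the data.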

Additional observations from a re-analysis of the deposited data

Results flagged for a closer look

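In 95 named genes the 5 control libraries were examined for a library far from the rest, and 6 had one. Chance alone flags about 1 in 20 such groups. Control replicate 1 was low for Wwtr1, at 32.2 CPM beside 39.4 to 40.8 CPM in the other controls. The same mouse was low for Gm9855, at 9.52 CPM beside 13.7 to 14.9 CPM, which is still far above the absence of counts in C57BL/6. It was high for Atp5g1, at 93.3 CPM beside 70.8 to 76.6 CPM, and the lowest C57BL/6 library, at 98.9 CPM, was above it.

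Control replicate 3 was low for the endothelial adhesion gene Esam, at 16.2 CPM beside 18.3 to 18.8 CPM. Control replicate 4 was high for Cbln3, at 0.881 CPM beside 0.471 to 0.572 CPM. Control replicate 5 was high for Serpina3n, a protease inhibitor of reactive astrocytes, at 32.8 CPM beside 7.87 to 10.2 CPM, with 68.3 to 104 CPM in nlsYAP5SA mice. Gfap, another gene of reactive astrocytes, was at 188 CPM in that mouse and at 170 to 187 CPM in the other controls.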

How the results depend on the processing

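The count of 28 called genes (8 higher, 20 lower) was 16 (9 lower) with at least 10 counts in every sample, 59 (27 and 32) with DESeq2's Wald test, 44 (16 higher) with all 13 samples in a single fit, 15 (3 and 12) with the replicate number as a block, 6 (2 and 4) with near-identical genes pooled and 8 (4 and 4) without pseudogenes, where Tdg, A830036E02Rik, Catspere2 and AC149090.1 also lost the call at log2 fold changes of 0.44, 1.27, -1.51 and 1.33. With near-identical genes pooled, Gm13230, A830036E02Rik, Catspere2 and AC149090.1 lost the call (edgeR adjusted p = 0.0545). Their log2 fold changes were then -6.37, 1.28, -1.51 and 1.33, about as large as without pooling. The higher calls were 3 with Ttr as a covariate and 14 with an offset for GC content and length. With 1 mouse left out, 19 to 27 genes were called, 3 to 7 higher and 15 to 20 lower. The pairing of equal replicate numbers was not borne out, with correlations of 0.13, -0.03 and 0.50, so the block is an alternative only. With the block 10.7% of listed genes and 4.64% of all genes had an unadjusted p of 0.05 or less (3.21% and 3.78% without it). Of the 26 called genes described, 11 were called under every setting that tested them, and 10 lost the call when some mouse was left out. The median of the strain list was -0.15 without C57BL/6 replicate 3 and up to 0.0471 with another mouse left out (0.02 with all), and that of the pituitary list -0.18 with the stricter filter.

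Kpna2 reversed to -0.10 when pooled with its copies. Genes near 0 changed sign: Yap1 (0.0258 with the Y-linked covariate, 0.0027 with the GC and length offset, 0.0142 with the replicate block), Lats1 (0.10 with the Y-linked covariate), Lats2 (-0.0122 with library size alone, -0.0011 without a filter, -0.0164 thinned) and Neurod6 (0.0016 with the Ttr covariate). With 1 mouse left out, Yap1 ranged from -0.0495 to 0.0287, Lats1 from -0.37 to 0.10, Lats2 from -0.09 to 0.0811 and Serpina3n from -0.75 to 0.0036. The cause was not tested. Of the called genes, 9 had a mean under 50 counts, and whether depth limits them was not tested beyond thinning. Thinned to the lowest total, 27 of the 28 calls were kept.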

Other observations

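Some genes were split within the control group rather than between the groups. A rule set after seeing the values, a gap of 8-fold or more between neighbouring controls (with 0.5 CPM added) and at least 5 CPM in the high libraries, found 11 such genes, 7 of them pseudogenes. In 6 of the 11 no C57BL/6 library was high. The long intergenic RNA Gm26825 and the processed pseudogene Gm15459 lie over each other (chr5:5781530-5783636 for the former). Gm26825 stood at 461 and 422 CPM in control replicates 4 and 5, at 0 in the other 3 controls, at 423, 412 and 363 CPM in nlsYAP5SA replicates 1, 3 and 5 and at 0 in the other 2, and at no more than 1.16 CPM in C57BL/6. Gm15459 was high in the same 5 mice, at 287 to 375 CPM, and at 8.67 to 17.1 CPM in all others. The heat shock gene Hspa8 was lowest in these 5 mice, at 972 to 1093 CPM, against 1553 to 1913 CPM in all others. A link between them was not tested.

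Other genes were high in other mice. Gm3608 on chromosome 1 was at 23.2 to 24.3 CPM in control replicates 2, 3 and 5, at 23 and 23.6 CPM in nlsYAP5SA replicates 2 and 5, and under 1.20 CPM in every other library. Rpl34-ps1 on chromosome 6, a pseudogene of a ribosomal protein of the large subunit, was at 22.8 to 40.8 CPM in control replicates 1, 3 and 4, at 35.2 and 30.7 CPM in nlsYAP5SA replicates 1 and 4, and at no more than 0.686 CPM elsewhere. Rps3a3 on chromosome 13 was at 46.7 and 52.3 CPM in control replicates 3 and 5 and at 43.5 CPM in nlsYAP5SA replicate 2, and no more than 1.25 CPM elsewhere. Rps3a2 on chromosome 14 was high in the same 3 mice, at 69.6, 74.1 and 81.6 CPM. These 2 pseudogenes share a parent sequence, so reads could be divided between them. None of these genes was called between control and C57BL/6. Ttr, described above, also met this rule. With no litter recorded for any mouse, these values are given as a description.

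Among genes with 50 counts or more and no overlap, some of the largest rises were not called. Under the settings of the report, Gm45640, within Chd9, stood at 1.87 CPM in control and 4.80 CPM in C57BL/6 (log2 1.36, SE 0.21, adjusted p = 0.0511 in edgeR's quasi-likelihood test). It was called under 8 of 22 alternatives, among them limma-voom (adjusted p = 0.0492), DESeq2's Wald test (7.23e-05) and the fit without control replicate 3, and its adjusted p ran up to 0.57. Gm42047 was at 2.54 and 8.46 CPM (log2 1.74, SE 0.58) and Gm7334 at 1.90 and 6.5 CPM (log2 1.75, SE 0.62), with controls from 0 to 3.72 CPM in the latter. Gm15920, a copy of the complex I gene Ndufa12 with 2 differences in 402 bases, was at 13 CPM in control and 3.13 CPM in C57BL/6 (log2 fold change -2.08, SE 0.40, adjusted p = 0.186), while Ndufa12 stood at 50.6 and 61.7 CPM. Gm15920 was called under 7 of 20 alternatives (adjusted p from 4.70e-05 to 0.708), among them the fits without C57BL/6 replicate 2 (log2 fold change -2.68) and without C57BL/6 replicate 3 (-1.62).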
